A study of Homo sapiens with 9 samples.

Results

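The genes described here are 38 regulators of pre-mRNA splicing: SR proteins, hnRNP proteins, PTB and TIA proteins and factors that recognise the 3' splice site. They were listed by name and role, by a rule that uses no measured value but with earlier results of these data known, and 37 of them were matched to an identifier among the 54562 Ensembl genes of the deposited table. SRSF8, an SR protein, was not matched and was not analysed here. The matched genes comprise 11 SR proteins, 4 3' splice-site factors, 5 PTB and TIA proteins and 17 hnRNP proteins.

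Polyadenylated RNA was sequenced strand-specifically from HEK293 cells, a human embryonic kidney cell line that takes up plasmids readily. Cells were transiently transfected with the empty vector (EV), with a plasmid for the *Alu* exon skipping isoform of the RNA editing enzyme ADARB1 (Short) or with a plasmid for its *Alu* exon inclusion isoform (Long), and RNA was collected after 48 hours. Each group has 3 libraries from 3 cell passages. A replicate number is taken here to mark the passage shared by an EV, a Short and a Long library. The labels do not state this, and a batch of same-numbered libraries cannot be told apart from a passage. All groups went through the same transfection, each library averages transfected and untransfected cells of a bulk culture, and no untransfected cells were included. In such cultures fewer cells of a kind and less RNA per cell cannot be told apart.

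SR proteins bind exonic enhancer sequences and recruit the spliceosome, whereas many hnRNP proteins bind introns or silencers and oppose exon recognition. At the 3' splice site SF1 binds the branch point, U2AF1 and U2AF2 bind the AG and the polypyrimidine tract, and SF3B1 then joins with the U2 snRNP. *Alu* elements in antisense orientation carry long uridine tracts that resemble such polypyrimidine tracts. HNRNPC is known to cover these tracts and to keep U2AF2 from them, and TIA1 is known to promote the use of exons with uridine-rich sequence beside them. HNRNPC, U2AF2 and TIA1 are therefore described first.

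The RefSeq promoter table (GRCh38.p14) held windows for 34 of the 37 genes, from 250 bases before to 50 after each listed start. The sequences below are the 150 bases before the start of the 3 genes known for control of *Alu* exons and of HNRNPM, the gene with the smallest adjusted p in the comparison of Long and EV described further on. They lie at chr14:21269443-21269592 on the minus strand (HNRNPC), chr19:55654885-55655034 on the plus strand (U2AF2), chr2:70248629-70248778 on the minus strand (TIA1, at one of its listed starts) and chr19:8444825-8444974 on the plus strand (HNRNPM). Capitals mark any match, on either strand, to the 7 motifs whose letters are given in the next paragraph, and neighbouring matches can overlap.
HNRNPC: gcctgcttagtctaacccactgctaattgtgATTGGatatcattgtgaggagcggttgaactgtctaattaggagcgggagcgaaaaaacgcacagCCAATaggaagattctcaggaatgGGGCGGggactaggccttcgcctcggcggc
U2AF2: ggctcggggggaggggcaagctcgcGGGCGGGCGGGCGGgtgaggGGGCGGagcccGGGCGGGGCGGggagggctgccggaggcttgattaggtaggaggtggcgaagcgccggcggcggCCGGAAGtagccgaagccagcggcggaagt
TIA1: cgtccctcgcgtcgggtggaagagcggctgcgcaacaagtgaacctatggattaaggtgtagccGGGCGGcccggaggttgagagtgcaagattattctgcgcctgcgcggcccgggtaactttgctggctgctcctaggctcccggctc
HNRNPM: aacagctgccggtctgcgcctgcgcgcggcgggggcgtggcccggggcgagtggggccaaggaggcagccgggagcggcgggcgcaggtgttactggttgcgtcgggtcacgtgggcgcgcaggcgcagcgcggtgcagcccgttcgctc

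The HNRNPC stretch holds a CCAAT box in each orientation and an SP1 box, and the U2AF2 stretch holds repeated SP1 boxes and an ETS match. The TIA1 stretch holds 1 SP1 box, and the HNRNPM stretch holds none of the 7 motifs. Over the whole windows, GGGCGG, the SP1 box, occurred in 25 of the 34 genes (73.5%, against 48.3% of all 27305 genes with a window) and CCAAT, the NFY box, in 18 (52.9%, against 39.7%). CCGGAAG, an ETS motif, occurred in 6 genes (17.6%, against 12.2%) and TATAAA, the TATA box, in 7 (20.6%, against 14% of all). TCGCGAGA, a ZBTB33 motif, occurred in HNRNPH3, HNRNPK and SRSF10 (8.82% of the genes, against 1.37%), and GCGCATGC, an NRF1 motif, in HNRNPH1, SRSF10, SRSF7 and U2AF1 (11.8%, against 3.68%). AGATGGCG, a YY1 motif, occurred in TIA1 alone (2.94%, against 2.86% of all). The windows of these genes had a median GC content of 64% and a median of 29 CpG dinucleotides, against 58.7% and 14 over all windows, and a letter match is a description of the window and not a binding site.

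Levels were deposited as FPKM, the fragments of a gene per unit of its length, scaled to the mapped fragments of that library, so they can be compared between genes. They are comparable between libraries only up to a scaling, since the FPKM of all genes summed to between 517170 and 589535 in the 9 libraries. In the EV libraries the median of the 37 genes was 148.8 FPKM, against 11.6 FPKM over the 13801 genes that averaged 1 FPKM or more in the 9 libraries, and 30 of the 37 genes (81.1%) lay in the top 10% of these genes. All 37 genes passed this minimum. The hnRNP genes together summed to 5044 ± 365 FPKM in EV, against 5172 ± 472 FPKM in Short and, in Long, 5283 ± 330 FPKM (SD, n = 3 for each group). The SR genes summed to 1309 ± 128 FPKM in EV, against 1316 ± 129 FPKM in Short and, in Long, 1360 ± 127 FPKM (SD, n = 3 for each group). Much of this spread lies between passages, and within each passage both sums were higher in Long than in EV, while Short differed in direction between passages. As a share of all FPKM, the 37 genes made up 1.24%, 1.32% and 1.49% in EV and 1.29%, 1.27% and 1.47% in Long, so the order of Long and EV depended on the scaling.

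HNRNPA2B1, an RNA-binding protein of the hnRNP core, had the highest EV level at 866 ± 129 FPKM (SD, n = 3). HNRNPC followed at 624 ± 17.4 FPKM, HNRNPH1, which binds G-rich silencers and enhancers, at 501 ± 65.2 FPKM, and HNRNPK, which binds C-rich RNA, at 461 ± 31.7 FPKM (SD, n = 3 each). HNRNPH1 and HNRNPK did not differ beyond their spread. Of the SR proteins SRSF5 (219 ± 14.3 FPKM) and SRSF3 (196 ± 25.4 FPKM) were the most abundant, and SRSF10, a splicing repressor when dephosphorylated, was the least at 36.3 ± 4.66 FPKM (SD, n = 3 each). The lowest levels of all were those of PTBP2, the neuronal paralog of the polypyrimidine tract-binding protein PTBP1, at 7.69 ± 0.68 FPKM, and of PTBP3 at 13.0 ± 2.08 FPKM, against 149 ± 10.1 FPKM for PTBP1 (SD, n = 3 each).

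**Figure D1:**
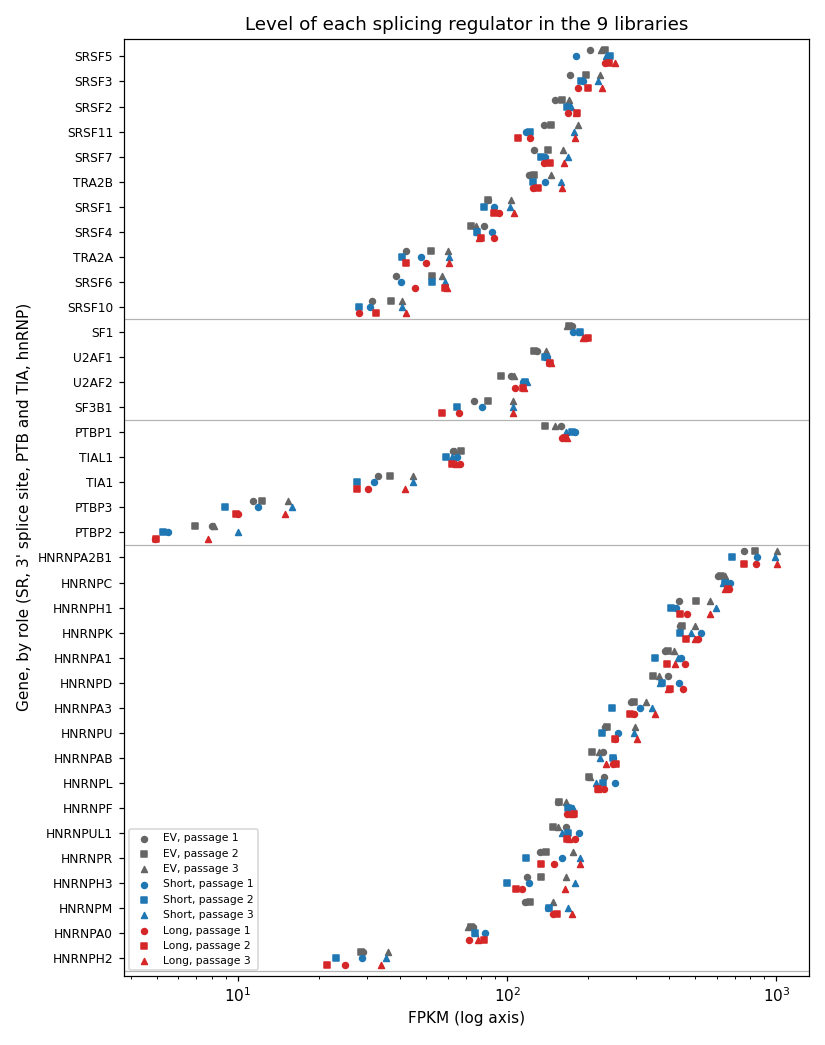
Level of each of the 37 splicing regulators (FPKM, log axis) in the 9 libraries, grouped by role and ordered by EV mean, with colours for EV, Short and Long and a marker shape for each passage. Levels run from PTBP2 (7.69 FPKM in EV) to HNRNPA2B1 (866 FPKM in EV), and for many genes the triangles of passage 3 lie to the right of the other markers.

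Some of these levels depend on how fragments of near-identical sequence were assigned, which the sources used here do not state. HNRNPA1, a core hnRNP protein, has 70 pseudogenes in the table, whose levels summed to 91% of its own. Of the 100-base runs of its longest transcript, 25.3% also occur in other genes. HNRNPA3 has 13, which summed to 73.7% of its level. Runs of 100 bases are also shared for SRSF1 (26.7%), HNRNPL (15.4%), U2AF1 (15.3%), SRSF6 (14.5%) and HNRNPH2 (12.1%, with a readthrough gene of RPL36A), so the levels of these 7 genes are uncertain. For 27 of the 37 genes no such run of the longest transcript is shared. An annotated transcript of the nonsense-mediated decay class exists for 31 of the 37 genes (83.8%), against 43.4% of the 13398 tested genes with an annotated transcript, and FPKM per gene does not separate such transcripts from coding ones.

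ADARB1 separated EV from the plasmid libraries, but its total level does not tell Short from Long: it lay between 7.66 and 8.61 FPKM in the EV libraries and between 1695 and 4145 FPKM in the libraries with either plasmid. The HEK293 markers VIM (132 to 164 FPKM), KRT8 (163 to 216 FPKM), KRT18 (76.3 to 99.6 FPKM), NEFM (48.6 to 75.5 FPKM), INA (10.3 to 12.6 FPKM) and PAX2 (1.73 to 2.87 FPKM) were present in every library. Of the markers of other cell types, PTPRC, ALB and MYOD1 stayed at or under 0.326 FPKM, HBB was listed at 0 throughout, and the fibroblast collagen COL1A1 lay between 9.1 and 12.9 FPKM. NEFL and PECAM1 were not matched.

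Groups were compared with limma on log2(FPKM + 1) over the 13801 genes, with the passage as a block, all 9 libraries in the fit and a threshold of 0.05 on the adjusted p (Benjamini-Hochberg over all genes tested). A log2 fold change on this scale understates the change of a gene with low FPKM, such as PTBP2. Single genes were also compared with exact two-sided permutation tests, where 3 libraries against 3 cannot give a p below 0.1 and a sign-flip test of 3 passages cannot give one below 0.25. The replicates differ in passage of 1 cell line. With the passage as a block, the p-values from limma measure how evenly a difference between groups recurs within passages of these cells.

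The first question was whether the regulators known for *Alu* exons differed when either ADARB1 isoform was expressed. HNRNPC was 607, 624 and 642 FPKM in the EV libraries of passages 1, 2 and 3, 673, 647 and 636 FPKM with Short, and 665, 664 and 645 FPKM with Long. Every Long library was above every EV library, by a small margin in passage 3, whereas Short overlapped EV. The log2 fold change was 0.075 for Long against EV (SE 0.0413, with adjusted p = 0.294 in limma) and 0.062 for Short against EV (adjusted p = 0.397 from limma). Rescaling the FPKM to a common sum per library (TPM) brought these to -0.0002 and -0.022, and correcting each library for GC content to 0.24 and 0.16. The adjusted p for Long ranged from 0.0532 to 0.999 over the alternatives in limma, so both size and direction for HNRNPC rest on the processing.

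U2AF2, the large subunit of U2AF, was 104, 94.6 and 106 FPKM in EV, 114, 117 and 118 FPKM with Short and 107, 114 and 115 FPKM with Long. All Short and all Long libraries were above all EV libraries. The log2 fold change was 0.20 in Short (standard error 0.0527) and 0.15 in Long, and neither passed the threshold (adjusted p = 0.11 and 0.116 from limma). The exact permutation test gave p = 0.1 for each isoform and the sign-flip test 0.25, the smallest values these designs allow. With TPM the log2 fold changes were 0.12 and 0.073, after GC correction 0.077 and 0.063, and with TPM or median-ratio scaling the groups overlapped.

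TIA1 was 33.0, 36.7 and 44.7 FPKM in EV, 32.1, 27.7 and 44.8 FPKM with Short and 30.3, 27.8 and 41.5 FPKM with Long. It was highest in passage 3 of every group, and the groups overlapped. Passage by passage, the log2 ratio of Long to EV was -0.124, -0.402 and -0.106 (mean -0.211, SD 0.166), with an exact two-sided sign-flip permutation p of 0.25. The log2 fold change was -0.20 (standard error 0.0772, adjusted p = 0.136 from limma). Correcting each library for GC content turned it to 0.08.

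A ratio of 2 genes within a library does not depend on scaling, but it does depend on GC content where the genes differ in it (39.2% for HNRNPC, 60.9% for U2AF2 and 43.2% for U2AF1). The level of HNRNPC relative to U2AF2 was 5.87, 6.59 and 6.08 in EV, 5.90, 5.54 and 5.38 in Short and 6.21, 5.81 and 5.59 in Long. The ratio of both isoforms overlapped that of EV, being above it in passage 1 and below it in passages 2 and 3. The mean log2 difference from EV was -0.14 for Short (SD 0.134) and -0.074 for Long (SD 0.139), and the exact sign-flip permutation test gave p = 0.5 for each. After GC correction the fitted difference turned positive, to 0.085 for Short and 0.178 for Long. U2AF2 relative to U2AF1 was 0.804, 0.75 and 0.761 in EV, 0.813, 0.849 and 0.843 in Short and 0.746, 0.792 and 0.792 in Long. Short lay above EV and above Long in each passage (exact permutation p = 0.1 over the libraries and 0.25 over the passages for each comparison). After GC correction the fitted difference from EV turned from 0.114 to -0.024 for Short and from 0.01 to -0.09 for Long. These ratios were chosen after the levels had been seen, and U2AF1 is 1 of the genes with shared sequence.

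Across all 37 genes, 3 passed the threshold for Long against EV (8.11% of them), and 8.32% of all genes tested passed. All 3 were higher in Long, HNRNPM, SF1 and HNRNPD, whereas over all genes 275 were higher and 873 lower. With TPM or median-ratio scaling 3 genes also passed, but HNRNPM was then the only higher one and SRSF11 and HNRNPH2 were lower. Over all genes 1280 passed with TPM (57 higher and 1223 lower) and 1243 with the median ratio (112 higher and 1131 lower). At an unadjusted p under 0.05 there were 16 genes, 11 higher and 5 lower, against 24.4% of all genes tested. At this threshold TPM scaling gave 10 genes, 3 higher and 7 lower, against 2891 of all 13809 genes tested. Median-ratio scaling gave 11, 5 higher and 6 lower, against 2993 of 13791, so the direction depended on the scaling. The share at the adjusted threshold was close to that of all genes, and the share at the unadjusted threshold was above it. Without passage 1, without passage 2 or without the passage block none of the 37 genes passed in limma, and 2, 95 and 2 of all genes did. At an unadjusted p under 0.05 these fits gave 14, 4 and 5 of the 37 genes and 3340, 1776 and 1035 of all genes. The median log2 fold change of the 37 genes was 0.0753, against 0.0389 over all genes tested. With TPM scaling the 2 medians were -0.0002 and -0.0277, and with median-ratio scaling 0.03 and -0.001.

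HNRNPM, an hnRNP protein that binds GU-rich RNA, was 117, 122 and 148 FPKM in EV, 142, 143 and 169 FPKM with Short and 148, 153 and 174 FPKM with Long. In each passage both isoforms were above EV, while the groups overlapped because passage 3 of EV was high. HNRNPM rose in Long by 0.30 on the log2 scale (standard error 0.0446, adjusted p = 0.00889 from limma), the largest rise of the 37 genes. For Short against EV its log2 fold change was 0.23 (adjusted p = 0.11 from limma). Its call in Long was lost without passage 1 (adjusted p = 0.129 from limma), without passage 2 (0.0817), without the passage block (0.637), without the minimum of 1 FPKM (0.104) and after GC correction (0.0509), with the fold change between 0.22 and 0.33 in all 13 alternatives.

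SF1, the branch point-binding protein, was 174, 169 and 167 FPKM in EV, 176, 186 and 186 FPKM with Short and 196, 199 and 191 FPKM with Long. Its Long libraries were all above its Short and EV libraries, and the spread between passages was small. SF1 rose in Long by 0.20 on the log2 scale (standard error 0.0454, adjusted p = 0.0258 from limma). It passed in 3 of the 13 alternatives, and neither scaling kept the call (adjusted p = 0.175 with TPM and 0.0997 with the median ratio, from limma).

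HNRNPD, also known as AUF1, which binds AU-rich elements and is known for control of mRNA decay, was 395, 348 and 368 FPKM in EV, 436, 376 and 370 FPKM with Short and 448, 403 and 397 FPKM with Long. Each Long library was above each EV library, and passage 1 was the highest in every group. HNRNPD rose in Long by 0.17 on the log2 scale (standard error 0.0416, adjusted p = 0.0351 from limma). It passed in 4 of the 13 alternatives, with a fold change from 0.092 with TPM to 0.47 after GC correction (adjusted p = 0.0458 from limma).

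**Figure D2:**
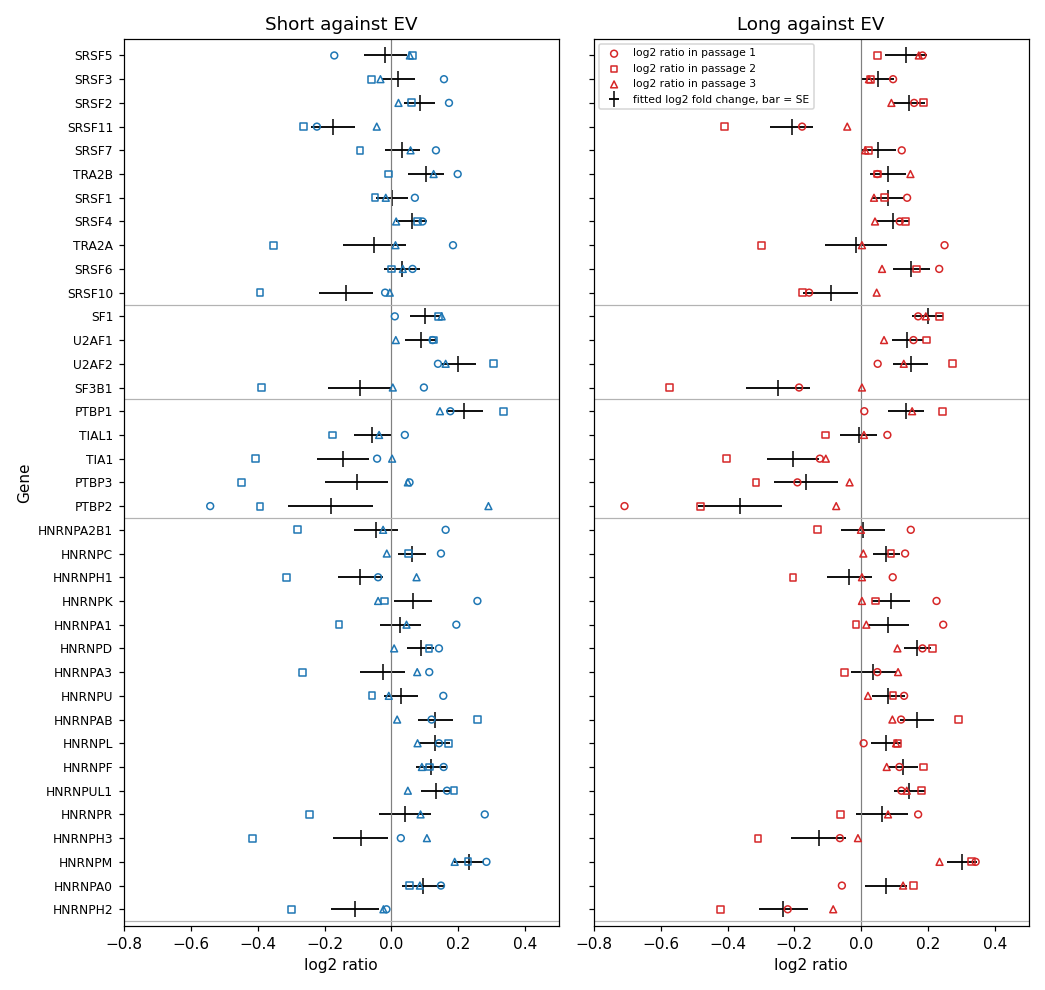
Difference of each of the 37 genes from EV for Short (left) and Long (right), as the log2 ratio of FPKM within each passage (open markers) and the fitted log2 fold change with its standard error (black). HNRNPM lies to the right of 0 in every passage of both panels, and the squares of passage 2 lie well to the left of 0 for PTBP2, SF3B1, SRSF11 and TIA1 in both.

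The genes with large negative values in Long did not pass the threshold. PTBP2 was 8.02, 6.91 and 8.14 FPKM in EV, 5.51, 5.26 and 9.95 FPKM with Short and 4.91, 4.95 and 7.73 FPKM with Long. It was low with either isoform in passages 1 and 2, while in passage 3 Long lay near EV and Short was the highest of all libraries. The log2 fold change of Long against EV was -0.36 (standard error 0.126, adjusted p = 0.107 from limma), and without passage 3 it was -0.51 (adjusted p = 0.0219 from limma). Without passage 1 it was -0.24 (adjusted p = 0.348 from limma), with length correction -0.22 (0.249) and after GC correction -0.024 (0.936).

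PTBP1 is known to repress PTBP2 by the skipping of an exon. PTBP1 was 158, 138 and 150 FPKM in EV, 179, 174 and 166 FPKM with Short and 159, 164 and 167 FPKM with Long, so that each library with an isoform was above each EV library. Its log2 fold change was 0.22 in Short and 0.13 in Long (adjusted p = 0.11 and 0.168 from limma). The level of PTBP2 relative to PTBP1 was 0.0507, 0.04996 and 0.0542 in EV, 0.0308, 0.0301 and 0.0600 in Short and 0.0308, 0.0302 and 0.0463 in Long. All Long libraries were below all EV libraries for this ratio, with a mean log2 difference of -0.556 (SD 0.285, exact permutation p = 0.1 and sign-flip p = 0.25), whereas Short differed in direction between passages. The transcripts differ in GC content (34.7% for PTBP2 and 61.7% for PTBP1), and after GC correction the fitted difference between the genes in Long went from -0.496 to -0.073.

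SF3B1, the U2 snRNP subunit at the branch point, was 75.3, 84.9 and 105 FPKM in EV, 80.5, 64.9 and 105 FPKM with Short and 66.2, 57.1 and 105 FPKM with Long. The 3 groups were alike in passage 3 and apart in passage 2. Its log2 fold change in Long was -0.25 (standard error 0.0962, adjusted p = 0.145 from limma). It was -0.091 without passage 2 and -0.10 after GC correction.

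SRSF11, an SR protein also known as p54, was 137, 145 and 183 FPKM in EV, 117, 121 and 178 FPKM with Short and 121, 109 and 178 FPKM with Long. Both isoforms were below EV in each passage, least in passage 3. The log2 fold change in Long was -0.21 (standard error 0.0648, adjusted p = 0.0786 from limma). It was -0.28 with TPM (adjusted p = 0.032 from limma) and 0.072 after GC correction, so both call and direction depended on the processing.

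HNRNPH2, a close relative of HNRNPH1, was 29.2, 28.5 and 36.1 FPKM in EV, 28.9, 23.2 and 35.5 FPKM with Short and 25.0, 21.3 and 34.1 FPKM with Long. Long was the lowest group in each passage. The log2 fold change in Long was -0.23 (standard error 0.0726, adjusted p = 0.0781 from limma), and HNRNPH2 passed as lower with TPM, median-ratio scaling and length correction (adjusted p = 0.0243, 0.0313 and 0.0413 from limma).

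By values in every library, 9 of the 37 genes had all Long libraries above all EV libraries (10.5% of all genes tested), namely U2AF1, U2AF2, SF1, PTBP1, HNRNPAB, HNRNPC, HNRNPD, HNRNPF and HNRNPUL1. None had all Long libraries below all EV libraries (3.14% of all genes tested). With TPM scaling 2 genes remained above, SF1 and HNRNPAB, against 3.20% of all genes tested. With median-ratio scaling 5 remained, against 5.64% of all genes tested.

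For Short against EV 0 of the 37 genes passed in limma, and 0.0362% of all genes tested did. At an unadjusted p under 0.05 there were 8 genes, 7 higher and 1 lower, against 22.0% of all genes tested. At this threshold TPM scaling gave 9 genes, 3 higher and 6 lower, against 2634 of all 13809 genes tested. Median-ratio scaling gave 7, 3 higher and 4 lower, against 2696 of 13791, so the direction depended on the scaling. All Short libraries were above all EV libraries for 5 genes, U2AF2, SF1, PTBP1, HNRNPA0 and HNRNPF, against 10.9% of all genes tested, and below for none, against 2.11%. With either scaling only PTBP1 remained of the 5, against 4.29% (TPM) and 6.41% (median ratio) of all genes tested. The median log2 fold change of the 37 genes was 0.0313 in Short, against 0.0411 over all genes tested.

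Between the isoforms, 0 of the 37 genes passed for Long against Short in limma, against 0.00725% of all genes tested. At an unadjusted p under 0.05 there was 1 gene, against 7.54% of all genes tested: SRSF5, a classical SR protein. SRSF5 was 203, 230 and 224 FPKM in EV, 180, 240 and 232 FPKM with Short and 230, 238 and 252 FPKM with Long. Short was low in passage 1 only, and the log2 fold change of 0.15 had an adjusted p of 0.645 from limma. Both isoforms were compared with the same EV libraries, so their 2 comparisons with EV are not independent.

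The libraries were also compared between passages. In limma's F test of the passage terms 24 of the 37 genes passed (64.9% of them), against 36.4% of all genes tested. Among the 10072 genes that averaged 5 FPKM or more, 4287 passed this test. Of the 24 genes, 20 were highest in passage 3, 3 in passage 1 and 1 in passage 2. Without passage 3 the count was 1, and only 28 of all 13841 genes tested in that fit passed.

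Genes of each role were high in passage 3. SF3B1 averaged 74.0 FPKM in passage 1, 69.0 FPKM in passage 2 and 105 FPKM in passage 3 over the 3 groups (adjusted p = 0.00196 from limma's F test). HNRNPH3, a small relative of HNRNPH1, averaged 117, 114 and 169 FPKM (adjusted p = 0.00108 from limma), and SRSF11 averaged 125, 125 and 180 FPKM (adjusted p = 0.000554 from limma). The passage 3 libraries of SRSF11 lay between 178 and 183 FPKM, whatever the plasmid, above all other libraries. TIA1 averaged 31.8, 30.7 and 43.7 FPKM and PTBP3, a paralog of PTBP1, averaged 11.0, 10.4 and 15.4 FPKM (adjusted p = 0.00155 and 0.00351 from limma). HNRNPA2B1 averaged 816, 758 and 1003 FPKM, and HNRNPU, a nuclear matrix protein that binds RNA and DNA, averaged 247, 237 and 299 FPKM (adjusted p = 0.00277 and 0.00156 from limma).

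For 17 of the 37 genes all 3 libraries of passage 3 were above all 6 of the other passages, against 13.1% of all genes tested. These were SRSF1, SRSF3, SRSF7, SRSF10, SRSF11, TRA2A, TRA2B, SF3B1, PTBP3, TIA1, HNRNPA2B1, HNRNPA3, HNRNPH1, HNRNPH2, HNRNPH3, HNRNPR and HNRNPU. None had all libraries of passage 3 below the others, against 17.3% of all genes tested. With TPM scaling there were 22 genes above, against 16.8% of all genes tested, and with median-ratio scaling 19, against 16.3%. The passage counted here was chosen after the values had been seen. Together the 37 genes made up 1.2% to 1.32% of the summed FPKM in passages 1 and 2 and 1.47% to 1.49% in passage 3.

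SRSF6, an SR protein, had a different order: it averaged 41.4 FPKM in passage 1, 54.6 FPKM in passage 2 and 58.4 FPKM in passage 3 (adjusted p = 0.000507 from limma). SRSF5 was likewise lowest in passage 1, at 204 FPKM against 236 FPKM in each of the others (adjusted p = 0.0311 from limma). HNRNPD (426, 376 and 378 FPKM), SRSF4 (86.3, 76.8 and 77.5 FPKM) and HNRNPL, which binds CA repeats (236, 215 and 212 FPKM), were highest in passage 1 (adjusted p = 0.0105, 0.0306 and 0.0351 from limma).

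HNRNPC was the most even of the 37 genes across passages, with means of 648, 645 and 641 FPKM (adjusted p = 0.945 from limma). SF1 (182, 185 and 181 FPKM) and HNRNPA0 (76.5, 76.97 and 75.26 FPKM) followed (adjusted p = 0.877 and 0.901 from limma). U2AF2 averaged 108, 109 and 113 FPKM and U2AF1 138, 136 and 142 FPKM (adjusted p = 0.523 and 0.547 from limma). TIAL1, the paralog of TIA1, stayed between 59.4 and 67.2 FPKM in all libraries (adjusted p = 0.799 from limma for passages), unlike TIA1.

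**Figure D3:**
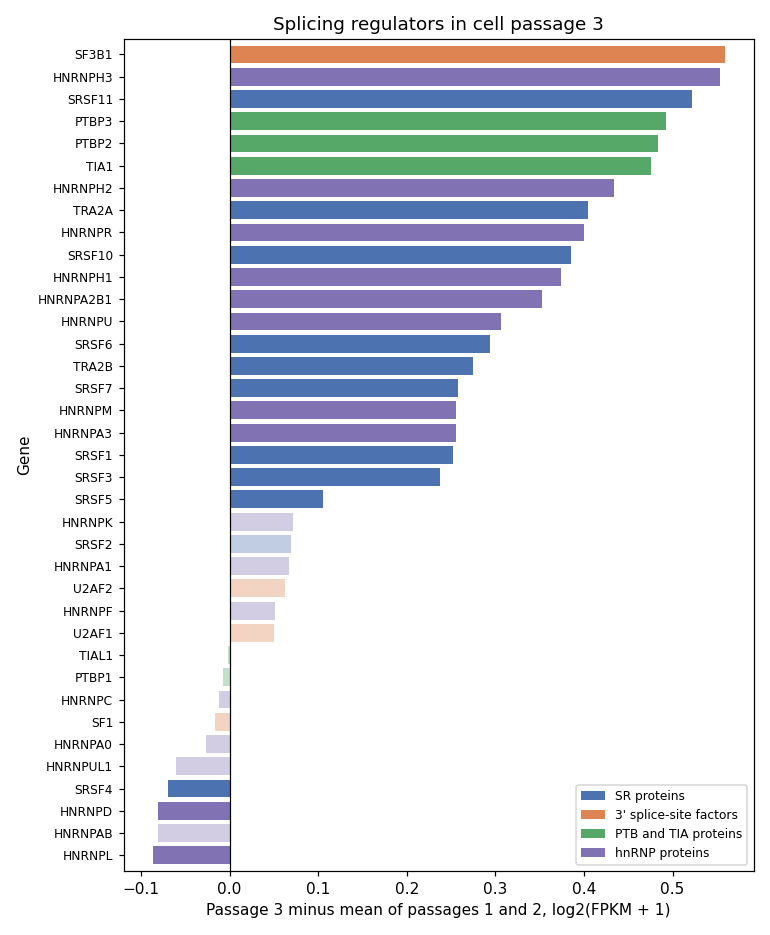
Difference of passage 3 from the mean of passages 1 and 2 over the 3 groups, in log2(FPKM + 1), for each of the 37 genes. Colours give the role, and pale bars mark the 13 genes that did not pass the F test of passages. SF3B1, HNRNPH3 and SRSF11 have the longest bars, and HNRNPC and SF1 lie near 0.

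GC content moved with these differences. The longest transcripts of the 37 genes had a median GC content of 40.7% and a median length of 4485 nt, against 47.8% and 3730 nt over the 13398 tested genes with an annotated transcript. The 24 genes that differed between passages had a median GC content of 39.5% and the other 13 genes 45.6%. Across genes, which are not independent replicates, the Spearman correlation of GC content with the difference of passage 3 from the others was -0.483 over the 37 genes and -0.542 over all genes with a GC value. After correction for GC content 21 of the 37 genes passed the F test of passages, against 29.9% of all genes tested, but 13 of these were among the 24 and 8 were not. The 11 genes that no longer passed were SRSF1, SRSF10, TRA2B, PTBP2, PTBP3, TIA1, HNRNPA3, HNRNPH1, HNRNPL, HNRNPR and HNRNPU. The 8 that passed only after the correction were SRSF2, U2AF2, PTBP1, TIAL1, HNRNPA0, HNRNPC, HNRNPF and HNRNPUL1, several of them the most even genes without it. SF3B1, HNRNPH3 and SRSF11 passed in both fits.

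The comparisons with EV also followed GC content. Across genes the Spearman correlation of the log2 fold change with GC content was 0.687 over the 37 genes for Short against EV (0.616 over all genes) and 0.557 for Long against EV (0.518 over all genes). For Long against Short, which does not involve EV, it was -0.023 (0.037 over all genes). The 8 genes at or above the median GC content of all genes, U2AF2, SF1, PTBP1, HNRNPAB, HNRNPF, HNRNPL, HNRNPM and HNRNPUL1, were all positive in both comparisons with EV, with medians of 0.146 in Long and 0.132 in Short. Of the other 29 genes, 18 were positive and 11 negative in Long (median 0.051), and 15 were positive and 14 negative in Short (median 0.002). In passage 2 the medians of these 29 genes were -0.157 in Short and -0.016 in Long, against 0.113 and 0.115 in passage 1. These signs and medians are those of the FPKM without rescaling, and they were not counted after scaling or over all genes. They depend on the scaling, since TPM brought the median of the 37 genes to -0.0002 in Long and -0.052 in Short.

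After GC correction 4 of the 37 genes passed for Long against EV, all higher: HNRNPD, SRSF1, TRA2B and HNRNPU, with adjusted p-values from 0.0458 to 0.0497 from limma. Over all genes 1.19% passed in this fit, 70 higher and 94 lower. SRSF1 binds purine-rich enhancers, and TRA2B binds GA-rich enhancers. SF1 had an adjusted p of 0.201 from limma after the same correction. The origin of the relation to GC content was not tested.

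Other genes of the splicing machinery were taken from 6 lists of 65 genes in all. For Long against EV 13 of them passed (8 higher and 5 lower), against the same 8.32% of all genes. None passed in limma for Short against EV or for Long against Short. At an unadjusted p under 0.05 there were 30 of them for Short against EV, against 22.0% of all genes tested. For Long against Short there were 8, against 7.54% of all genes tested. The count of 13 was 0 without passage 1, 1 without passage 2, 8 without passage 3, 3 after GC correction and 0 without the passage block. Over all genes these fits gave 2, 95, 1032, 164 and 2. All 13 of these splicing genes had the same direction in each of the 13 alternatives. Changing only the minimum FPKM, the trend, the block or the groups fitted cannot alter a fold change, so those alternatives do not test direction. The size did differ: after GC correction the log2 fold change of CLK1 was -0.051, that of LUC7L3 -0.05 and that of PRPF4B -0.128. Of the 8 SR protein kinases, which phosphorylate SR proteins, 2 were lower and none higher. CLK1 went from 31.1 ± 1.4 FPKM in EV to 24.2 ± 4.60 FPKM in Long and PRPF4B from 46.3 ± 10.9 to 36.2 ± 15.1 FPKM (SD, n = 3 each), with log2 fold changes of -0.36 and -0.39 (adjusted p = 0.0305 and 0.0156 from limma).

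Of the 11 U2 snRNP and branch point proteins, 2 were higher, SF3A1 by 0.21 and SF3B3 by 0.22 on the log2 scale (adjusted p = 0.0328 and 0.0286 from limma). SF3A1 went from 52.7 ± 3.74 FPKM in EV to 61.3 ± 2.67 FPKM in Long (SD, n = 3 each), while SF3B1 of the same complex, described above, had a negative value that did not pass. Of the 12 tri-snRNP and NTC proteins 3 were higher: PRPF8, the core protein of the spliceosome (0.21), the helicase SNRNP200 (0.17) and the ubiquitin ligase PRPF19 (0.19), with adjusted p = 0.0221, 0.048 and 0.0405 from limma.

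Of the 6 U1 snRNP proteins SNRPC was higher (log2 fold change 0.18) and LUC7L3 lower (-0.30), with adjusted p = 0.0359 and 0.0382 from limma. Of the 8 SR-related coactivators BCLAF1 was lower. BCLAF1 was 92.7, 95.3 and 158 FPKM in EV and 41.4, 48.5 and 135 FPKM in Long, with a log2 fold change of -0.78 (adjusted p = 0.0111 from limma), and it shared the high passage 3. Of 20 other splicing regulators SFPQ (0.20) was among those higher and MBNL2, a regulator of developmental splicing, was lower (-0.81), with adjusted p = 0.0255 and 0.00884 from limma. MBNL2 was 9.516, 6.881 and 9.498 FPKM in EV and 4.26, 2.95 and 6.70 FPKM in Long, so that all Long libraries were below all EV libraries.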

How the data were processed

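Strand-specific libraries of polyadenylated RNA from the 9 HEK293 cultures were mapped by the authors with TopHat (version 1.4.1), first to Ensembl transcripts and then, for unmapped reads, to hg19, and the submitters' processing notes also list Cufflinks. The authors deposited 1 table of FPKM per gene and library, without pooled replicates. Read counts were not used here, so depth is unknown and no counting intervals were computed. FPKM falls for all genes when a few transcripts take a large share, as the plasmid transcripts can.

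Gene names, positions, GC content and length came from GENCODE on GRCh37, where 47578 identifiers matched, and promoters from RefSeq on GRCh38.p14. The members and lists were chosen with earlier results of these data known. Values were tested in R (version 4.3.3) with the package limma (version 3.58.1) on log2(FPKM + 1), with an intensity trend, a mean of at least 1 FPKM, and group and replicate number as terms. The pairing by replicate number is an assumption from the study's methods, which repeat transfections in different passages but do not tie a number to a passage. Same-numbered libraries deviated from their group means together (correlation across genes 0.327 to 0.813 in 9 pairs, mean 0.552). Over 18 other pairs the correlation ran from -0.634 to 0.366 (mean -0.256), so the ranges overlap. Centring each group on its mean pulls the mean of other pairs down as that of same-numbered pairs rises, so it adds no separate support. The fit was tested on simulated data. Values in every library are given for HNRNPC, U2AF2 and TIA1, for genes past the threshold and for those with the largest fold changes (8 in Long, 5 in Short). SRSF5 was added after its values were seen, as were the ratios between genes. Of the other lists, genes that passed are named, except 1 that is not reported here. Alternatives were a pseudocount of 0.1, TPM and median-ratio scaling, no minimum or a mean of at least 5 FPKM, no trend, each passage left out, loess corrections (span 0.3) for GC content and length, no block, and fits of only the groups compared.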

Additional observations from a re-analysis of the deposited data

How the results depend on the processing

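For Long against EV the count of 3 genes was 0 without the replicate block, 0 with no filter on low values, 1 without the trend and 1 with only the groups compared, and 5 with the length correction; leaving out a passage gave 0 to 3. It was 3 or 4 in the other settings, though with both scalings 2 of the 3 were lower (SRSF11 and HNRNPH2). Without passage 3 also 2 of the 3 were lower, PTBP2 and SRSF11 (adjusted p = 0.0219 and 0.0443 from limma). SF1 and HNRNPD did not pass in that fit (adjusted p = 0.0978 and 0.0524 from limma). Of all genes, 2 passed without the block, 1 with no filter, 646 without the trend and 725 with only the groups compared. The 2 scalings gave 1280 (TPM) and 1243 (median ratio) of all genes, most of them lower. With the length correction 1373 of all genes passed, and without passage 1, 2 or 3 the counts were 2, 95 and 1032. The median log2 fold change of the 37 genes in Long moved to -0.0002 with TPM, 0.03 with the median ratio and 0.133 with the GC correction. For Short against EV and Long against Short the counts of these genes were 0 in every setting. The passage count of 24 was 19 to 24 in other fits and 1 to 23 with a passage left out. The count was 19 with no filter, where 2861 of 27356 genes passed, and 20 without the trend, where 4562 of 13801 did. Leaving out passage 1 or 2 gave 20 and 23, where 4339 and 4752 of all genes passed. It was 1 without passage 3, where 28 of all genes passed. Of the other splicing genes, 13 passed in Long, 0 without the block or the filter, 4 without the trend or with only the groups compared, 3 with the GC correction and 0 to 8 with a passage left out, and for Long against Short 0 to 1. A fit that changes only the minimum FPKM, the trend or the block, or uses only the groups compared, leaves fold changes unchanged. With these fits included, 410 of 416 fold changes of named genes under alternatives kept their sign. The 6 others were SRSF11 (0.072) and TIA1 (0.08) in Long and PTBP2 (0.017) and TIA1 (0.021) in Short with the GC correction, and HNRNPC with TPM (-0.0002 in Long, -0.022 in Short). With the GC correction, added for pairs of genes after seeing the data, HNRNPC minus U2AF2 turned to 0.178 in Long and 0.085 in Short, and U2AF2 minus U2AF1 to -0.09 and -0.024. The causes were not tested. The smallest change that passed among the 37 genes was 0.17 on the log2 scale (HNRNPD), with 3 libraries a group.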
